A study of Mus musculus with 12 samples.

Results

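C2C12GFP mouse myoblasts kept on fibronectin are compared here with the same cells on uncoated plates, by RNA sequencing of 3 samples of each, 6 of the 12 samples of the series. The other 6 samples, from plates coated with Collagen I or Geltrex, enter the same statistical fit and a direct comparison near the end. Every gene with enough counts in the deposited table was tested, and the genes named below come from the largest changes, the DEGs with the most reads and 38 gene lists, some of them taken after their values were seen. C2C12GFP is a single cell line that carries green fluorescent protein, taken through differentiation from myoblasts to myotubes. The label of the RNA protocol says myoblasts while the series text speaks of myotubes, and the day on which RNA was taken is not given in the sources used here. Nothing in the labels says that the samples of a group are separate cultures, so the p-values measure only the spread between these samples, which may be technical.

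Fibronectin is an extracellular glycoprotein that cells bind through its RGD motif with integrins, above all the pair of *Itga5* with *Itgb1* and those built on *Itgav*. Bound integrins gather talin, vinculin, paxillin and the kinases *Ptk2* and *Src* into focal adhesions, which join the matrix to actin and signal to growth pathways. Myoblasts that differentiate leave the cell cycle, switch on *Myog*, fuse into myotubes and then build sarcomeres.

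Depth was 24147733, 27334546 and 23812461 counts in the control samples and 27351766, 24614474 and 25734771 on fibronectin. Genes of the mitochondrial genome took 7.002, 5.14 and 8.28% of the control counts and 4.56, 6.04 and 6.21% of those on fibronectin, and these ranges overlap. Ribosomal protein genes held 2.11, 1.88 and 2.02% in the control and 1.79, 1.80 and 2.03% on fibronectin, again with overlap. The deposited table holds 55536 genes, of which 29301 had a count in some sample and 14499 passed the low-count filter and were tested.

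In a principal component analysis of all 12 samples the first component held 44.9% of the variance and the second 20.7%. Control samples lay at -39.1, -21.8 and -24.4 on the first component and fibronectin samples at 23.7, 32.4 and 21.5, so the groups are apart on it. Collagen I samples had -33.7, -32.6 and -39.9 there and Geltrex samples 37.2, 38.8 and 37.9. On the second component the fibronectin samples were lowest, at -31.4, -41.2 and -19.5, and the Geltrex samples highest, at 28.0, 27.1 and 27.9. Control sample 1 is set off from controls 2 and 3 on both components.

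**Figure D1:**
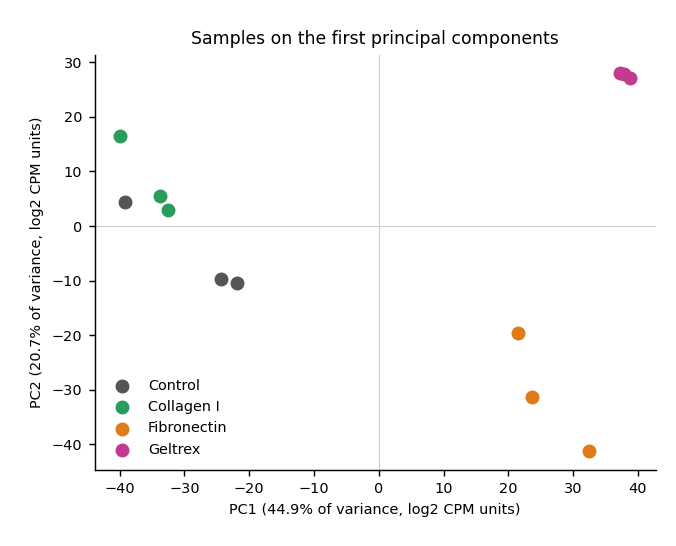
Each point is a sample, coloured by plate coating, placed by its scores on the first (44.9% of the variance) and second (20.7%) principal components of log2 CPM (counts scaled to the depth of the sample). Fibronectin samples lie at 21.5 to 32.4 on the first axis and controls at -39.1 to -21.8, and the second axis separates fibronectin from Geltrex.

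On fibronectin the cells had more RNA of genes for mitosis, DNA replication and homologous recombination, and less RNA of *Myog* and of nearly every sarcomere gene. A gene is called a DEG here when its adjusted p is at most 0.05 and its fold change at least 2, in the quasi-likelihood test of edgeR, with the p-values of the 14499 genes adjusted by the Benjamini-Hochberg method. There were 965 DEGs (6.66% of the genes tested), 351 higher (2.42%) and 614 lower (4.23%) on fibronectin. Without control 1, which lay apart from the other controls on the first and second components, there were 790, of which 734 are among the 965. By adjusted p alone, whatever the fold change, 2485 genes were higher (17.1%) and 2133 lower (14.7%). Counts of genes higher and lower than the control in a list are to be read beside these shares. The shift over all genes tested was small, with a median log2 fold change of -0.016, while the median was 1.38 for the DEGs that rose and -1.53 for those that fell. Beyond a log2 fold change of 2 in size there were 22 DEGs higher and 148 lower. For 6033 genes (41.6%) the samples of the groups do not overlap, among them 936 of the DEGs. Protein-coding genes gave 311 of the DEGs higher and 469 of those lower, and long noncoding RNAs gave 29 and 131.

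Some genes of muscle stand at the low end. Genes at both ends were named only where the groups do not overlap, so their separation follows from the choice. Levels are given in CPM, counts scaled to the depth of each sample, and a value given for a gene without a unit is the log2 fold change of fibronectin over control. *Actc1*, the cardiac actin that embryonic skeletal muscle also makes, had 106, 99.5 and 83.6 CPM in the control and 15.2, 14.5 and 12.4 CPM on fibronectin. The highest fibronectin sample is far below the lowest control, and the log2 fold change was -2.78 (SE 0.14, adjusted p = 2.28e-09). *Myl2*, the regulatory light chain of slow and cardiac myosin, gave 62.3, 61.2 and 49.8 CPM in the control and 8.77, 5.48 and 8.62 CPM on fibronectin. These groups do not overlap either (-2.92, SE 0.14, adjusted p = 2.28e-09). *Ppp1r3a*, which anchors protein phosphatase to glycogen in muscle, was at a low level, 1.99, 3.30 and 1.66 CPM in the control and 0.371, 0.209 and 0.194 CPM on fibronectin. All fibronectin samples are under all controls, and the gene fell by 3.13 on the log2 scale (adjusted p = 6.76e-05).

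The other genes at the low end are mostly read at a few CPM. *Olfr1389*, a gene of the olfactory receptor family, has the lowest log2 fold change among them, with 2.23, 2.16 and 2.46 CPM in the control and 0.149, 0.126 and 0.155 CPM on fibronectin. The groups are well apart (-3.94, SE 0.43, adjusted p = 6.00e-06). *Padi2*, an enzyme that turns arginine in proteins into citrulline, had -3.31 (SE 0.33, adjusted p = 1.96e-06), and *Art5*, an ADP-ribosyltransferase, -3.10 (SE 0.32, adjusted p = 2.92e-06). *Pstpip1*, an adaptor that binds cytoskeletal proteins, fell as well (-2.94). Others are *Sohlh2*, a transcription factor of germ cells (-2.82), *Atp6v1c2*, a subunit of the vacuolar proton pump (-2.80), and the unnamed loci *Gm19817* (-3.29) and *Gm38534* (-2.99). In none of these do the groups overlap, as the rule of choice required.

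The high end holds genes of several kinds. *Knl1*, a scaffold of the kinetochore, had 7.52, 9.35 and 8.92 CPM in the control and 32.7, 46.5 and 32.6 CPM on fibronectin. Its groups are well separated (2.11, SE 0.14, adjusted p = 3.87e-08). *Fancd2*, a protein of DNA crosslink repair, read 1.75, 1.504 and 1.74 CPM in the control and 6.35, 7.996 and 6.87 CPM on fibronectin. The value was 2.08 (SE 0.18, adjusted p = 4.24e-07). *Bub1*, a checkpoint kinase of the kinetochore, and *Kif4*, a motor protein of chromosomes, reached 2.01 and 2.002. *Acsbg1*, an acyl-CoA synthetase, had 2.08 and *Sapcd2* 2.01, and the pseudogene *Gm13230* (2.15) and the noncoding loci *Gm42476* (2.13) and *D5Ertd615e* (2.01) complete the high end with *E2f7*, *Aspm* and *Bcat1*, given further on.

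Among the DEGs with the most reads, *Flna*, the filamin that crosslinks actin and binds integrin tails, had 870.1, 1030.3 and 897 CPM in the control and 1891, 1854 and 1969 CPM on fibronectin. All fibronectin samples exceed all controls, with 1.03 (SE 0.087, adjusted p = 3.85e-07). *Frmd6*, a FERM-domain protein upstream of the Hippo pathway, rose by 1.05. On the falling side *Ttn*, the giant spring of the sarcomere, had 1489, 1351 and 1337 CPM in the control and 377, 427 and 419.7 CPM on fibronectin. The groups are far apart (-1.77, SE 0.14, adjusted p = 1.72e-07). *Tpm2*, a tropomyosin, and *Mylpf*, the fast regulatory light chain, fell (-1.39 and -1.54), as did *C1qtnf3*, a secreted protein of the complement C1q family (-1.07). *Malat1*, a nuclear noncoding RNA, varied among the controls, 3834, 1486 and 2694 CPM in the control and 1052, 1114 and 1432 CPM on fibronectin. The groups do not overlap, although control 2 stands close to fibronectin 3 (-1.16, SE 0.31, adjusted p = 0.00997), and the call is lost without control 1.

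*CT010467.1*, annotated as ribosomal RNA, had 2559, 2491 and 1075 CPM in the control and 9100.0, 3111 and 5459 CPM on fibronectin. The lowest fibronectin sample is only a little over the highest control, and the value was 1.53 (SE 0.38, adjusted p = 0.00590). Antisense exons cover 73.9% of this gene, so its count is uncertain, as the strand used in counting is not stated. The same holds in part for *Fosl1*, with 57.2% of its exon bases overlapped by exons of the other strand, for *Mb* (31.9%), *Irs1* (30.9%), *Trim54* (26.6%), *Spry1* (24.4%), *Ccnd1* (23.4%) and *Atp2a1* (21.9%).

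**Figure D2:**
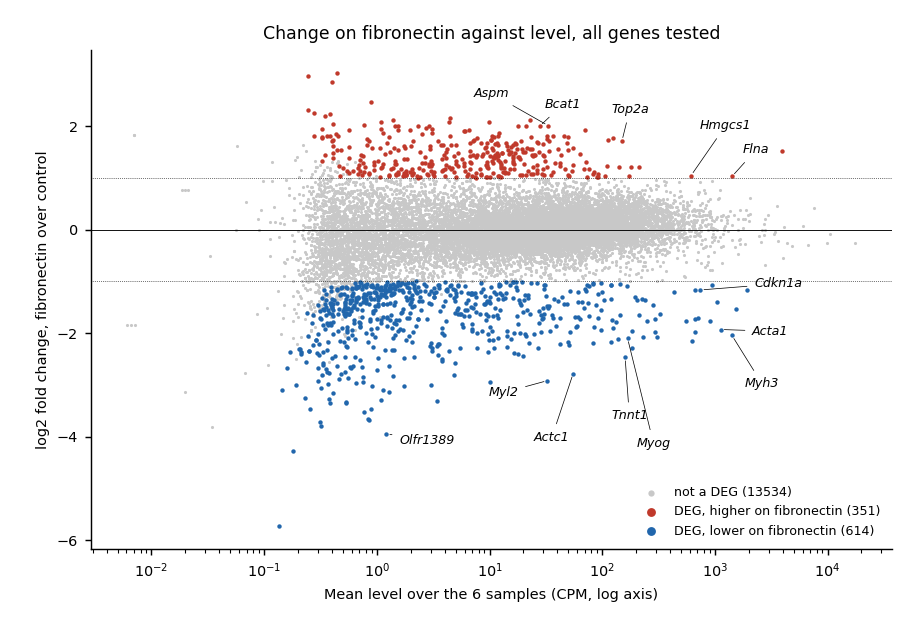
Each point is a tested gene, with its mean level over the 6 samples in CPM on a logarithmic horizontal axis and its log2 fold change of fibronectin versus control on the vertical axis; DEGs are red where higher and blue where lower. Labelled muscle genes such as *Myh3* (-2.04) and *Actc1* (-2.78) lie among the blue points, and *Top2a* (1.71) and *Hmgcs1* (1.05) among the red.

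Among markers of cell types those of skeletal muscle had the most reads, with fewer on fibronectin. The 8 skeletal muscle markers summed to 7438, 7668 and 6779 CPM in the control and 2652, 2274 and 2354 CPM on fibronectin, and *Myh3* has the most reads of them. All fibronectin sums are far below all control sums, and 7 of the 8 markers passed with a lower value and 0 with a higher. Since RNA was read from whole cultures, fewer cells of a type and less RNA per cell cannot be told apart, here and in every result that follows.

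Markers of the other cell types had fewer reads than those of skeletal muscle. Fibroblast markers summed to 758, 730 and 737 CPM in the control and 627, 577 and 691 on fibronectin. Of those tested 1 of 5 passed, with a lower value (*Ly6a*, -0.35, a call lost without control 1, fibronectin 1 or fibronectin 2), and the fibroblast markers *Thy1* and *Tcf21* had 0 counts. Smooth muscle markers, nearly all from *Acta2*, came to 1111, 1016 and 1064 CPM in the control and 907, 921 and 862 on fibronectin, with 2 of 3 lower. The call of *Acta2* (-0.24) is lost when any sample is left out. Bone and cartilage markers, led by *Sox9*, overlap between groups, at 170.1, 191 and 189 CPM against 200, 203 and 172, with 1 of 3 higher (*Runx2*, 0.32) and 1 lower (*Col10a1*, -0.74). The call of *Runx2* is lost without control 1, fibronectin 1 or fibronectin 2 (0.20 without the last), and that of *Col10a1* without control 1, control 2 or any fibronectin sample.

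Neural markers moved the other way. Their sums were 34.9, 32.4 and 23.3 CPM in the control and 60.6, 48.9 and 54.3 on fibronectin, and no sample of the groups overlaps. Most of these reads are *Tubb3*, a tubulin of neurons that other growing cells also make (0.90, SE 0.14, adjusted p = 1.35e-04). *Sox10* and *Snap25*, which define glia and neurons, were at 0 in nearly all samples, and the part of the neural markers in the results was not tested. Adipocyte markers other than *Cebpa*, and the epithelial *Epcam*, *Krt8* and *Cdh1*, the immune *Ptprc* and *Adgre1* and the endothelial *Cdh5* and *Kdr*, were at or near 0.

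**Figure D3:**
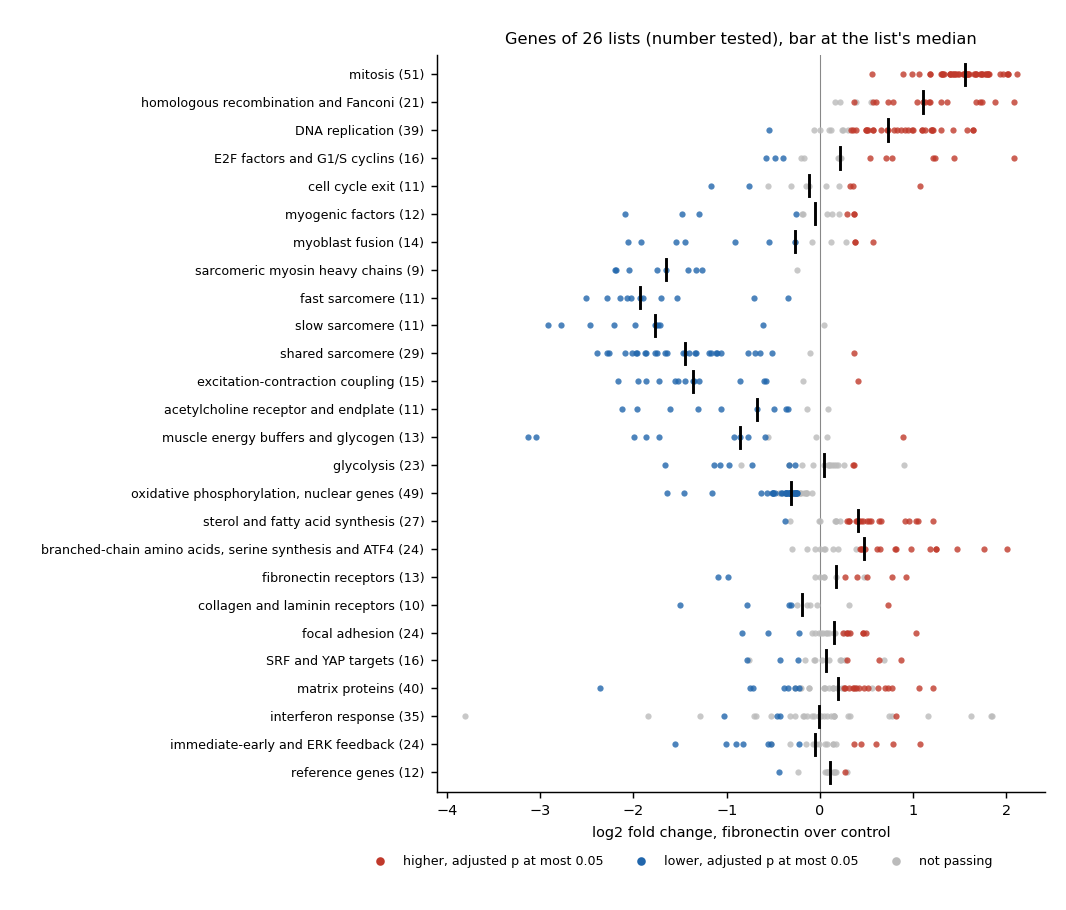
Each row is a gene list, with its number of tested genes in brackets, each dot a gene at its log2 fold change of fibronectin versus control (red higher and blue lower at an adjusted p of at most 0.05, grey not passing), and the bar marks the median of the list. The mitosis list stands highest (1.56) and the fast sarcomere list lowest (-1.93), against a median of -0.016 over all genes.

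Genes of mitosis rose as a group. All 51 of the listed mitosis genes passed the test with a higher value on fibronectin, and 48 of them are DEGs, with a list median of 1.56 against -0.016 over all genes. *Top2a*, the topoisomerase that untangles chromosomes, had 58.5, 72.9 and 78.2 CPM in the control and 207, 254 and 228 CPM on fibronectin. The lowest fibronectin sample is far over the highest control, and the log2 fold change was 1.71 (SE 0.10, adjusted p = 1.33e-08). *Aspm*, which focuses spindle poles, had 10.3, 15.8 and 13.4 CPM in the control and 48.7, 69.96 and 41.05 CPM on fibronectin. Its groups are apart as well, although fibronectin 2 stands over the other fibronectin samples (2.01, SE 0.18, adjusted p = 5.59e-07). *Mki67*, a coat protein of mitotic chromosomes used as a marker of dividing cells, had 47.4, 53.9 and 68.3 CPM in the control and 159, 254 and 168 CPM on fibronectin. Again no control reaches the fibronectin range (1.78, SE 0.16, adjusted p = 6.39e-07).

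The genes that rose act at many stages of cell division. *Ccnb1*, the cyclin of mitotic entry, and its kinase *Cdk1* had 1.80 and 1.29. The spindle motor *Kif11*, the spindle checkpoint kinase *Ttk* and *Cdc20*, which starts anaphase, had 1.81, 1.597 and 1.40. *Anln* and *Ect2*, which act in the cleavage furrow, reached 1.74 and 1.72. The transcription factors *Mybl2* and *Foxm1*, which drive late cell cycle genes, rose by 1.97 and 1.44. Only *Spc24* (0.89), *Incenp* (0.98) and *Smc4* (0.56) passed by adjusted p without the fold change of a DEG.

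DNA replication genes rose less. Of 39 tested, 31 passed with a higher value and 1 with a lower, 12 of them DEGs, at a median of 0.72. *Mcm10*, *Cdc6* and *Mcm5*, which license and fire origins, had 1.65, 1.64 and 1.42, and *Uhrf1*, which guides DNA methylation to new strands, 1.57. In each sample *Mcm5* read 7.68, 9.17 and 9.38 CPM in the control and 19.7, 23.2 and 27.3 CPM on fibronectin. These groups do not overlap (1.42, SE 0.14, adjusted p = 1.65e-06). *Gins3*, a subunit of the replicative helicase, went the other way at -0.55 (SE 0.11, adjusted p = 0.00147), and its partners *Gins1* (1.19) and *Gins2* (0.83) rose, though the call of *Gins2* is lost without control 1, control 2 or fibronectin 3.

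Genes of homologous recombination and the Fanconi pathway had a median of 1.11. Of 21 tested 17 rose and 0 fell, and 12 are DEGs. Beside *Fancd2* the largest values belong to *Exo1* (1.88), a nuclease that resects DNA ends, the helicase *Brip1* (1.74), *Rad51ap1* (1.72) and *Brca1* (1.68).

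Among E2F factors and cyclins of entry into S phase 7 of 16 were higher and 3 lower, with a median of 0.22. *E2f7*, a repressor that is itself switched on in S phase, had 3.66, 3.27 and 4.50 CPM in the control and 12.96, 19.7 and 15.7 CPM on fibronectin. The groups are well apart (2.08, SE 0.16, adjusted p = 1.24e-07). *Ccnd1*, the cyclin D that growth signals induce, rose from a control level of 16.6, 17.6 and 14.1 CPM to 42.5, 46.7 and 41.8 CPM. No sample of either group lies in the range of the other (1.44, SE 0.10, adjusted p = 4.13e-08). *Ccnd2* and the kinase *Cdk6* gained 1.23 and 1.22, and the S phase cyclins *Ccne1* and *Ccne2* 0.77 and 0.70, with *E2f8* at 0.53. Lower were *Ccnd3*, the cyclin D of differentiated muscle (-0.58), *Cdk2* (-0.48) and the repressor *E2f6* (-0.40).

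Of the genes of cell cycle exit, *Cdkn1a*, which encodes the inhibitor p21 that rises as myoblasts withdraw, had 1093, 1051 and 944 CPM in the control and 479, 448 and 450.4 CPM on fibronectin. Every fibronectin sample is under every control, and the value was -1.16 (SE 0.090, adjusted p = 1.47e-07). *Btg2*, an antiproliferative gene, fell by 0.76 on the log2 scale. In the opposite direction the pocket protein *Rbl1* (1.08) and the inhibitors *Cdkn2c* (0.32) and *Cdkn2d* (0.35) rose, so that 3 of 11 tested were higher and 2 lower, at a median of -0.12 (-0.15 without control 1 to -0.0086 without control 3). The call of *Cdkn2d* is lost when control 2, control 3, fibronectin 1 or fibronectin 3 is left out. Over all genes tested 17.1% were higher and 14.7% lower than in the control. *Cdkn2a* and *Cdkn2b* are listed at 0 counts.

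**Figure D4:**
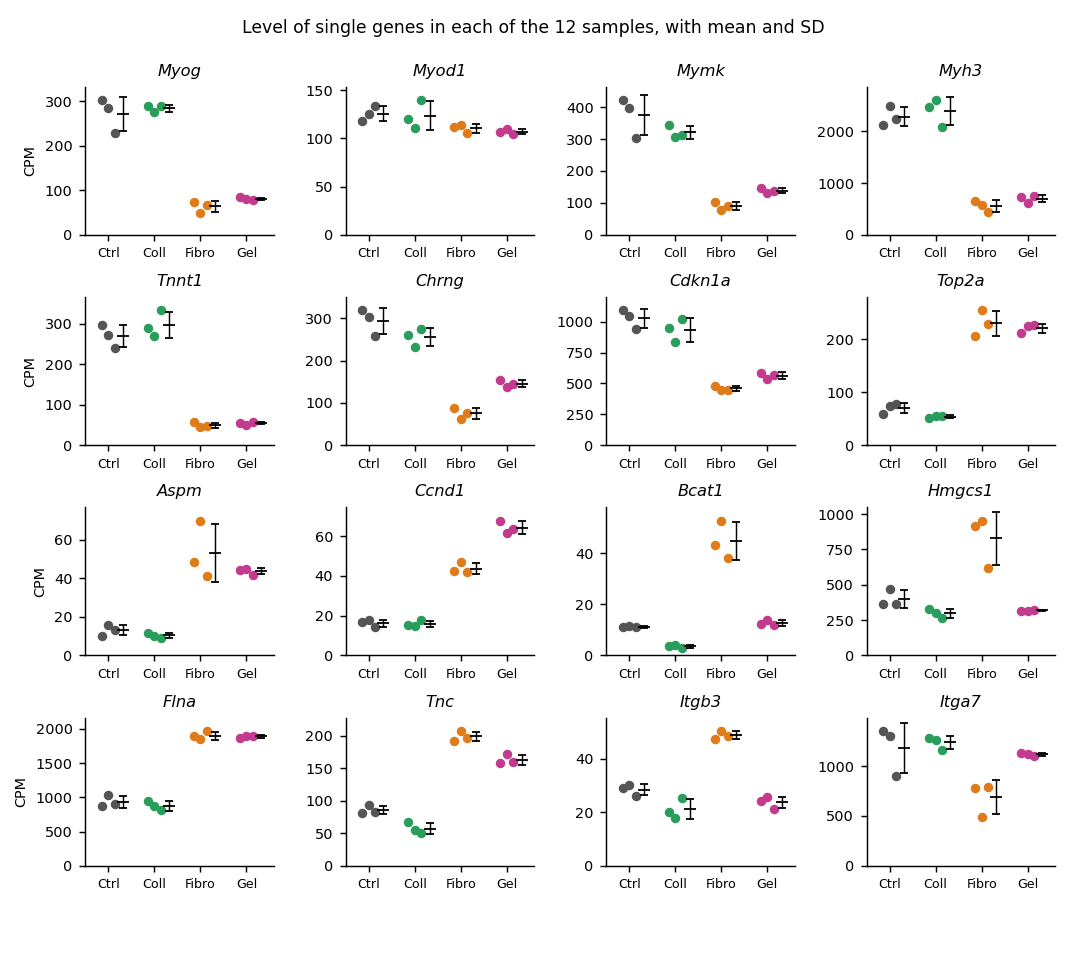
CPM in each sample (points), with group mean and SD, for 16 genes on uncoated plates (Ctrl), Collagen I (Coll), fibronectin (Fibro) and Geltrex (Gel). On fibronectin *Top2a*, *Aspm* and *Ccnd1* stand over the control and *Myog*, *Mymk* and *Chrng* under it, while *Bcat1* and *Itgb3* are highest on fibronectin.

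Promoters of 4 of these genes are shown because their genes rose together and their windows hold the motifs of the cell cycle. Each is the RefSeq window from 250 bases before to 50 bases after the gene start on build GRCm38.p6, written 5′ to 3′ on the strand of the gene. Capitals mark matches, on either strand, to the CHR element (TTTGAA), the CCAAT box (CCAAT) and the E2F site (TTTCCCGC or TTTGGCGC). *Aspm* (chr1:139454523-139454822, plus strand) and *Top2a* (chr11:99024140-99024439, minus strand) hold CHR and CCAAT matches, and *E2f7* (chr10:110745189-110745488, plus strand) and *Mcm5* (chr8:75109259-75109558, plus strand) E2F and CCAAT matches.
Aspm: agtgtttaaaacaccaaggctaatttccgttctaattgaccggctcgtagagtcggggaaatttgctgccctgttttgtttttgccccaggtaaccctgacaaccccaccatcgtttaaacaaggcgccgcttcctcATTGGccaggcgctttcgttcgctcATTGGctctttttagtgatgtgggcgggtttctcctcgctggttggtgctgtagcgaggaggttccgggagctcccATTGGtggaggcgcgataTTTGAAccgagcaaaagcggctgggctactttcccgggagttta
Top2a: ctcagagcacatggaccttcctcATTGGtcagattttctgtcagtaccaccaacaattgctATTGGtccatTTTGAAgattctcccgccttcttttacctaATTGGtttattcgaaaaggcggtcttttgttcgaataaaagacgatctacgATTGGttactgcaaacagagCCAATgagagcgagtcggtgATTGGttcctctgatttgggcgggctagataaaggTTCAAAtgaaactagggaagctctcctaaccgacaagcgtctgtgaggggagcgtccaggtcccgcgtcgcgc
E2f7: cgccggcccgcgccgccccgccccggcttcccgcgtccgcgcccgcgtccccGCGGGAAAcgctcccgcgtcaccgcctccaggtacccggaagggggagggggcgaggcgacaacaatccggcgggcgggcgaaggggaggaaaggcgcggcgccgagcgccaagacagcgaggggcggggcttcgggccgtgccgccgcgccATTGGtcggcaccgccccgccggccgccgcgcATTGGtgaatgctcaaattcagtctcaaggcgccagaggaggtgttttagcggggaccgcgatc
Mcm5: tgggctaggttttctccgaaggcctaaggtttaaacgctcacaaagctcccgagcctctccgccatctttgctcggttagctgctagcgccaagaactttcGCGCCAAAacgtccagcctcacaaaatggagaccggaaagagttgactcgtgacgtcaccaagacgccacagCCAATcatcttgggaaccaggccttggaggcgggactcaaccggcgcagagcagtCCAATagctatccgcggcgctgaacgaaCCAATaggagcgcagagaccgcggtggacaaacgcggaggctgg

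A match describes letters in the window, and is neither a site nor a cause. CHR matches lie in 75% of the 44 windows of mitosis genes, in 30.0% of the windows of all DEGs that rose, in 12.3% of those of all tested genes and in 17.9% of all promoters. For the CCAAT box the shares are 75% for mitosis genes, 48.1% for DEGs that rose, 37.9% for tested genes and 37.4% for all promoters. E2F matches lie in 30.0% of the 40 windows of DNA replication genes and 4.55% of those of mitosis genes, beside 5.80% for DEGs that rose, 0.561% for DEGs that fell, 2.84% for tested genes and 1.56% of all promoters. RefSeq windows were found for 42 of the 51 mitosis genes and 33 of the 39 replication genes.

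The regulators of the muscle programme split. *Myog*, the factor that starts terminal differentiation, had 303, 284 and 229 CPM in the control and 74.0, 49.9 and 66.9 CPM on fibronectin. The highest fibronectin sample is less than the lowest control by a wide margin, and the log2 fold change was -2.096 (SE 0.13, adjusted p = 1.45e-08). *Myod1*, which commits cells to muscle and acts before it, had 118, 125 and 134 CPM in the control and 112, 114 and 106 CPM on fibronectin. Those ranges lie next to each other without overlap, and *Myod1* did not pass (-0.19, adjusted p = 0.116). *Smyd1*, a methyltransferase of muscle, and *Mef2c*, a partner of the myogenic factors, fell (-1.48 and -1.296).

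Of 12 myogenic factors tested, 3 rose and 4 fell, at a median of -0.054 (-0.21 without fibronectin 2 to 0.028 without fibronectin 1, and over 0 without control 1 too). Among the rising genes are the homeobox gene *Six4* (0.37) and the E protein *Tcf12* (0.37). *Mef2d* fell by 0.26 on the log2 scale, with overlap between the groups, and this call is lost without control 1, control 2, fibronectin 2 or fibronectin 3, that of *Six4* without control 1 or fibronectin 1. *Pax7*, the factor of satellite cells (-0.19, adjusted p = 0.772), *Myf5* (0.078, adjusted p = 0.574), *Mef2a* (0.12, adjusted p = 0.445) and the E protein *Tcf3* (0.20, adjusted p = 0.115) did not pass, though without fibronectin 2 *Tcf3* did, at 0.29 (adjusted p = 0.030). *Pax3* and *Myf6* had too few counts to test.

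Fusion genes fell more often than they rose. *Mymk*, the membrane protein myomaker, had 422, 397 and 303 CPM in the control and 102, 76.4 and 89.9 CPM on fibronectin. There is no overlap, and the value was -2.06 (SE 0.12, adjusted p = 1.30e-08). *Mymx*, the micropeptide that completes fusion with it, *Cav3*, the caveolin of muscle, and *Dysf*, a membrane repair protein, had -1.55, -1.92 and -1.44. *Bin1*, which shapes T-tubules, and the adhesion molecules *Ncam1* and *Cdh15* fell less (-0.91, -0.54 and -0.27). The cell surface receptors *Kirrel* (0.57), *Neo1* (0.38) and *Boc* (0.37) rose, giving 3 of 14 higher and 7 lower at a median of -0.27. The call of *Boc* is lost when any sample is left out, and that of *Cdh15* without control 1, control 2 or fibronectin 2.

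Of the proteins that hold the sarcomere together, 27 of 29 tested fell, 23 as DEGs, and the list median was -1.45. *Hspb7*, a small heat shock protein of muscle, and the kelch protein *Klhl41*, which stabilises thin filaments, fell (-2.39 and -2.28), and so did *Actn2*, the alpha-actinin of the Z disc (-2.09), and *Trim54*, a microtubule-bound ligase (-2.26). Only *Pdlim5*, a Z disc protein found in many cells, rose (0.36, SE 0.10, adjusted p = 0.0116), a call lost without control 1 or fibronectin 2.

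Slow and fast isoforms fell together. In the slow list 10 of 11 tested fell and 0 rose, with a median of -1.77, and in the fast list all 11 fell, with a median of -1.93. *Tnnt1*, slow troponin T, had 297, 272 and 241 CPM in the control and 56.1, 43.7 and 47.1 CPM on fibronectin. All 3 fibronectin samples are far under the controls (-2.46, SE 0.11, adjusted p = 1.30e-09). *Tnnt3*, its fast counterpart, had 1055, 1051 and 949 CPM in the control and 254, 215 and 220.2 CPM on fibronectin. That too leaves a wide gap (-2.15, SE 0.092, adjusted p = 1.30e-09). *Acta1*, skeletal actin, counted in the fast list, had 1918, 1876 and 1559.8 CPM in the control and 519, 402 and 485 CPM on fibronectin. No fibronectin sample comes near a control (-1.93, SE 0.11, adjusted p = 8.93e-09). *Myoz2*, a slow Z disc protein, fell as well (-2.21), as did the fast genes *Casq1*, the calcium store protein (-2.51), *Mybpc2*, a myosin-binding protein (-2.28), and *Tnni2*, fast troponin I (-2.07).

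Of the 9 sarcomeric myosin heavy chains 8 fell as DEGs and 0 rose, at a median of -1.65. *Myh3*, the embryonic chain, had 2128, 2483 and 2237 CPM in the control and 656, 572 and 434 CPM on fibronectin. Both groups are narrow beside the gap between them (-2.04, SE 0.14, adjusted p = 3.72e-08). *Myh8*, the perinatal chain, and *Myh7b* had -2.19 and -2.19, the adult fast chains *Myh1*, *Myh2* and *Myh4* -1.65, -1.33 and -1.27, and the slow and cardiac chains *Myh7* and *Myh6* -1.41 and -1.75. *Myh13*, of eye muscle, was read at a trace level (-0.25, adjusted p = 0.711).

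Per length of transcript, the sarcomeric chains summed to 1455, 1766 and 1469 TPM in the control and 487.7, 431.5 and 310.6 TPM on fibronectin. Every fibronectin sum is under every control. *Myh3* made up 83.5 ± 0.468% of this sum in the control and 79.6 ± 0.226% on fibronectin (mean ± SD of 3 samples). *Myh1* went from 11.2 ± 0.376 to 14.04 ± 0.337% and *Myh4* from 1.07 ± 0.0371 to 1.71 ± 0.313%, so the mix held a little more adult fast chain in a smaller total. *Myh8* stood at 2.57 ± 0.182% in the control and 2.21 ± 0.118% on fibronectin, and *Myh7* at 0.693 ± 0.0918% and 1.04 ± 0.061%. These paralogs are alike in sequence and may share reads, and the shares were not tested.

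**Figure D5:**
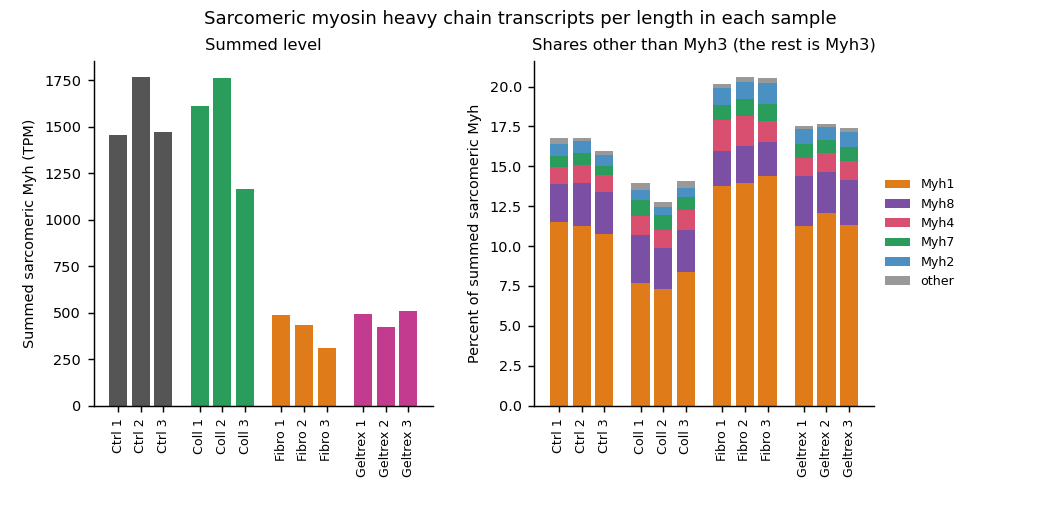
Sarcomeric myosin heavy chains in each sample on uncoated plates (Ctrl), Collagen I (Coll), fibronectin (Fibro) and Geltrex, as summed TPM (left) and as the percent of that sum from each chain other than *Myh3*, which makes up the rest (right). The fibronectin sums of 310.6 to 487.7 TPM lie under the control sums of 1455 to 1766, and the *Myh1* share is larger on fibronectin, at 13.8 to 14.4%.

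Promoters of *Chrng*, the fetal subunit of the acetylcholine receptor, and *Acta1* are shown as examples of genes that fell. They are RefSeq windows of the same span on build GRCm38.p6, at chr1:87205561-87205860 on the plus strand and chr8:123894726-123895025 on the minus strand, and capitals mark the E-box (CAGCTG) and the MCAT element (CATTCC) on either strand.
Chrng: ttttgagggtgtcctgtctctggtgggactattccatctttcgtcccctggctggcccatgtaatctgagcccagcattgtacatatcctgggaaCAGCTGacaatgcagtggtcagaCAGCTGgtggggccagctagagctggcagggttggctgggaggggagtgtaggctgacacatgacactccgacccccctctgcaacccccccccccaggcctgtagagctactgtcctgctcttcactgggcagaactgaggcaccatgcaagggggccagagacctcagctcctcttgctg
Acta1: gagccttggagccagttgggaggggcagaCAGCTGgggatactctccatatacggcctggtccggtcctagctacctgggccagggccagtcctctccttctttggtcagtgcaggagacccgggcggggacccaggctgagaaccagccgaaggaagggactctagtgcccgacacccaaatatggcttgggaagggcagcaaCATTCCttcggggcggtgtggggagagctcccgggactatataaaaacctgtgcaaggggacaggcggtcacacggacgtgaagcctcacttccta

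The *Chrng* window holds 2 E-box matches and the *Acta1* window an E-box and an MCAT match. E-box matches lie in 40.4% of the 57 windows of sarcomere genes (47 of 60 genes), in 26.9% for DEGs that fell, 14.3% for DEGs that rose, 15.8% for tested genes and 16.3% of all promoters. For MCAT the shares are 29.8% for sarcomere genes, 18.3% for DEGs that fell, 15% for DEGs that rose, 12.4% for tested genes and 14.7% of all promoters.

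Genes that turn excitation into contraction fell too. Of 15 tested 13 were lower and 1 higher, 10 of them DEGs, with a median of -1.37. *Ryr1*, the calcium release channel, had 272, 371 and 232 CPM in the control and 143, 102 and 97.9 CPM on fibronectin. Its groups are apart (-1.35, SE 0.17, adjusted p = 1.85e-05). *Hrc*, a calcium-binding protein of the sarcoplasmic reticulum, had -2.16, the muscle sodium channel *Scn4a* -1.95, triadin (*Trdn*) -1.87, cardiac calsequestrin (*Casq2*) -1.73 and the voltage sensor *Cacna1s* -1.37, all lower. *Asph*, whose locus also encodes junctin and a hydroxylase of many cells, rose by 0.41, a call lost without control 1. *Sln* is listed at 0 counts.

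At the endplate 9 of 11 genes fell and 0 rose, at a median of -0.68. *Chrng*, whose promoter is printed above, had 319, 303 and 258 CPM in the control and 88.02, 62.7 and 75.8 CPM on fibronectin. The groups do not meet (-1.96, SE 0.12, adjusted p = 1.30e-08). *Ache*, the esterase that ends the signal, and *Colq*, its collagen tail, had -2.12 and -1.61, the adaptor *Dok7* -1.31 and the receptor subunits *Chrnd* and *Chrna1* -1.06 and -0.68.

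RNA of most genes for the fuel stores of muscle fell. In the list of energy buffers and glycogen 9 of 13 were lower and 1 higher, with a median of -0.85. *Ckm*, muscle creatine kinase, had 25.1, 29.8 and 25.01 CPM in the control and 9.40, 5.02 and 5.51 CPM on fibronectin. There is no overlap between these ranges (-1.996, SE 0.18, adjusted p = 7.28e-07). *Ampd1*, the AMP deaminase of muscle, and *Pygm*, muscle glycogen phosphorylase, fell (-3.05 and -1.73), and so did *Gys1* and *Gyg*, which build glycogen (-0.92 and -0.78). *Ppp1r3c*, a glycogen-targeting subunit found in many tissues, rose from 3.42, 4.29 and 4.25 CPM to 7.65, 7.45 and 7.15 CPM. That is the reverse of its muscle relative *Ppp1r3a*, with the groups again apart (0.89, SE 0.15, adjusted p = 3.30e-04).

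Muscle isoforms are among the largest falls in glycolysis. Of 23 genes 2 rose and 7 fell, and the list median was 0.041 (0.016 without fibronectin 1 to 0.093 without fibronectin 2). *Pgam2*, the muscle mutase, fell by 1.66 on the log2 scale while *Pgam1*, the isoform of other tissues, rose by 0.37. *Pfkm*, muscle phosphofructokinase, *Ldhb* and *Eno3*, muscle enolase, had -1.08, -1.13 and -0.97, and *Aldoa*, *Gapdh* and *Ldha* -0.73, -0.34 and -0.26. The lactate carrier *Slc16a1* gained 0.36, and the call of *Ldha* is lost without control 1, control 2 or fibronectin 2.

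Nuclear genes of oxidative phosphorylation fell by small amounts. Of 49 tested 34 were lower and 0 higher, with a median of -0.31, yet only 3 are DEGs, or 1 when 10 counts are asked of every sample. Those are *Cox7a1*, *Cox8b* and *Cox6a2*, the isoforms of cytochrome oxidase that striated muscle uses, at -1.64, -1.46 and -1.16. *Cox7a1* was read at a trace, 0.557, 0.587 and 0.467 CPM in the control and 0.186, 0.126 and 0.194 CPM on fibronectin. The samples still do not overlap (adjusted p = 0.00971). The complex I subunit *Ndufs7* follows at -0.63 (SE 0.14, adjusted p = 0.00342).

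Of 13 genes of the mitochondrial genome 1 passed, *mt-Atp6*, a subunit of the ATP synthase, with 199, 68.9 and 169 CPM in the control and 40.2, 53.96 and 54.2 CPM on fibronectin. The groups do not overlap, but the controls differ among themselves more than the 3 fibronectin samples do (-1.56, SE 0.41, adjusted p = 0.00959). The list median was -0.26 (-0.42 without control 2 to -0.055 without control 3). Fatty acid genes gave 1 higher and 6 lower of 20, at a median of -0.20, led by the carrier *Fabp3* (-2.14) and the transporter *Cd36* (-1.46), with the kinase *Pdk2* at -0.61 and *Mlycd*, which degrades malonyl-CoA, at -0.44. *Cpt1a*, the liver-type entry enzyme of fatty acid oxidation, rose by 0.33. That call is lost without control 1, and the call of *Mlycd* without control 1, control 2, fibronectin 3 or fibronectin 2 (-0.25).

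Regulators of oxidative metabolism had a median of 0.037 (0.0056 without control 3 to 0.064 without control 2), with 2 of 11 higher and 3 lower. Of all genes tested 17.1% were higher and 14.7% lower. *Prkag3*, the muscle subunit of AMP kinase, and the catalytic subunit *Prkaa2* fell (-2.05 and -0.78), and the nuclear receptor *Esrra* had -0.64 with overlapping samples. *Prkaa1*, the other catalytic subunit, had 0.33 and *Pparg*, the receptor of fat cells, 0.57, both higher. When a control sample is left out the calls of *Prkaa1* (control 1 or 3), *Prkaa2* (control 2) and *Esrra* (control 1 or 2) are lost, and so they are without fibronectin 1 (*Prkaa1*), fibronectin 2 (*Prkaa1* and *Esrra*, -0.40) or fibronectin 3 (*Prkaa2*).

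RNA of most genes in a list of amino acid metabolism and the ATF4 response rose on fibronectin. Of 24 tested genes of branched-chain amino acids, serine synthesis and the ATF4 response, 15 were higher and 0 lower, 6 as DEGs, at a median of 0.47. *Bcat1*, the cytosolic aminotransferase of branched-chain amino acids, had 10.98, 11.4 and 11.04 CPM in the control and 43.2, 52.7 and 37.9 CPM on fibronectin. The groups are far apart (2.002, SE 0.13, adjusted p = 2.26e-08). *Asns*, asparagine synthetase, had 36.6, 34.997 and 30.1 CPM in the control and 87.4, 103 and 91.9 CPM on fibronectin. Again no samples overlap (1.47, SE 0.11, adjusted p = 6.45e-08). In mitochondrial folate metabolism *Aldh1l2* and *Mthfd2* rose by 1.76 and 1.18, and *Pck2*, mitochondrial PEP carboxykinase, by 1.248.

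Serine synthesis followed, with *Phgdh*, *Psat1* and *Psph* at 0.82, 0.61 and 0.81. The amino acid carrier *Slc7a5* had 0.98 and *Trib3*, a pseudokinase induced by ATF4, 1.24. *Atf4*, the factor itself, did not pass at the level of RNA, with 265, 231 and 217 CPM in the control and 257, 229 and 248 CPM on fibronectin (log2 fold change 0.042, adjusted p = 0.788). Those ranges overlap.

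RNA of most genes for sterol and fatty acid synthesis was higher as well. Of 27 genes 19 rose and 1 fell, with a median of 0.41. *Hmgcs1*, which makes the substrate of the mevalonate pathway, had 362, 473 and 366 CPM in the control and 915, 953 and 616 CPM on fibronectin. Fibronectin 3 is nearest to the controls, but still over them (1.05, SE 0.14, adjusted p = 5.15e-05). The sterol carrier *Stard4* rose by 1.02 and *Insig1*, which holds back the pathway when sterols are plentiful, by 0.96, and *Elovl6* and *Idi1* had 0.91 and 0.65. *Dhcr7*, of the last step to cholesterol, fell by 0.37 on the log2 scale.

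Fibronectin's own gene rose on the fibronectin plates. *Fn1* had 5632, 7037 and 6694 CPM in the control and 8093, 8573 and 9152 CPM on fibronectin. The lowest fibronectin sample is over the highest control, at a fold change of 1.33 (0.42, SE 0.10, adjusted p = 0.00436). Of 40 matrix genes 15 rose and 7 fell, 2 and 1 of them DEGs, at a median of 0.19. Among all genes tested 17.1% rose and 14.7% fell, and 2.42% and 4.23% were DEGs. *Tnc*, a matrix protein that loosens adhesion, had 81.6, 92.9 and 83.0 CPM in the control and 192, 207 and 197 CPM on fibronectin. No overlap is seen there (1.21, SE 0.10, adjusted p = 2.32e-07). The collagen crosslinkers *Loxl2* and *Lox* rose by 1.06 and 0.77, the elastic fibre protein *Fbln2* by 0.73, the basement membrane linker *Nid1* by 0.69 and *Thbs1*, thrombospondin, by 0.62. The fibrillar collagen *Col1a1* and the proteoglycan *Lum* fell (-0.72 and -0.75), and so did the laminin chain *Lamb2* (-0.38) and elastin, at a low level (*Eln*, -2.36, and -3.62 without fibronectin 1).

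Receptors for fibronectin moved in different directions. Of 13 genes 5 rose and 2 fell, where 17.1% and 14.7% of all genes tested did, and the median was 0.17. *Itgb3*, the beta chain that pairs with *Itgav*, had 29.0, 30.4 and 26.2 CPM in the control and 47.5, 50.4 and 48.6 CPM on fibronectin. The groups are well apart (0.78, SE 0.11, adjusted p = 8.04e-05). *Itgav*, the alpha chain of the vitronectin and fibronectin receptors, had 214, 307 and 274 CPM in the control and 381, 418 and 331 CPM on fibronectin. Control 2 comes near fibronectin 3 but stays under it (0.51, SE 0.15, adjusted p = 0.0157). The call of *Itgav* is lost without control 1 or fibronectin 2. *Itga4* had 0.92, at about 1 to 2 CPM, and the syndecans *Sdc4* and *Sdc2*, coreceptors that bind the heparin site of fibronectin, 0.39 and 0.26. The call of *Itga4* is lost without control 1, control 3, fibronectin 1 or fibronectin 3, and also with a replicate block (0.91, adjusted p = 0.0517). That of *Sdc2* is lost without control 1, control 2, fibronectin 1 or fibronectin 2.

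Lower were *Itgb6* (-1.09) and *Itga8* (-0.99). The classic receptor pair did not pass, neither *Itga5* (0.042, adjusted p = 0.739) nor *Itgb1* (0.17, adjusted p = 0.219). In each sample *Itga5* read 140.3, 135 and 122 CPM in the control and 144, 122 and 143 CPM on fibronectin, and those ranges overlap. *Itgb8* (0.47, adjusted p = 0.0536), *Itgb5* (-0.057, adjusted p = 0.612), *Sdc1* (0.044, adjusted p = 0.777) and the platelet chain *Itga2b* (-0.00070, adjusted p = 0.999) did not pass either, though *Itgb8* did with DESeq2 (adjusted p = 0.033), with a replicate block, with no filter, without control 2 (0.66) and without fibronectin 3 (0.58).

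Receptors for collagen and laminin gave 1 of 10 higher and 4 lower, at a median of -0.19. *Itga7*, the laminin receptor of differentiating muscle, had 1350.1, 1302 and 897 CPM in the control and 783, 493 and 786 CPM on fibronectin. All fibronectin samples are under all controls, with fibronectin 2 the lowest (-0.78, SE 0.16, adjusted p = 0.00174). *Itga10*, a collagen receptor chain, had -1.51, dystroglycan (*Dag1*) -0.31 and the collagen kinase *Ddr1* -0.33 with some overlap, while its relative *Ddr2* rose by 0.73. The call of *Dag1* is lost without control 2, fibronectin 2 or fibronectin 3, and that of *Ddr1* without control 1, control 2, fibronectin 1 or fibronectin 2 (-0.21).

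Proteases and their inhibitors gave 6 of 18 higher and 1 lower, at a median of 0.013 (0.00020 without fibronectin 1 to 0.11 without fibronectin 2). *Plau*, an activator of plasminogen, rose by 0.70, *Adamts5* by 0.59 and the metalloprotease inhibitor *Timp3* by 0.58, and *Adamts4* fell by 0.40 on the log2 scale, a call lost without control 1 or fibronectin 2.

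In focal adhesions 8 of 24 genes rose and 3 fell, at a median of 0.15 (0.083 without control 3 to 0.20 without control 2), with *Flna* the only DEG, and no DEG without control 1. *Parva* and *Lims1*, partners of integrin-linked kinase, gained 0.49 and 0.47, and *Tns3*, which ties integrins to actin, 0.46. *Actn1* and *Zyx*, of actin bundles, had 0.33 and 0.29 and focal adhesion kinase (*Ptk2*) 0.29. *Lims2* fell by 0.84 on the log2 scale, and *Vasp* (-0.55, with overlapping samples) and the scaffold *Bcar1* (-0.22) fell too. The call of *Ptk2* is lost without control 1 or fibronectin 2, that of *Bcar1* without control 1, control 2, fibronectin 1 or fibronectin 3, and that of *Vasp* without control 1, control 2 or fibronectin 2 (-0.32).

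Targets of SRF and YAP showed little common movement, with 3 of 16 higher, 3 lower and a median of 0.060 (-0.010 without fibronectin 1 to 0.13 without control 1). Over all genes tested 17.1% were higher and 14.7% lower. *Myl9*, *Cnn2* and *Axl* rose by 0.87, 0.63 and 0.28. *Ankrd1*, a stretch-responsive protein, had 813, 800.1 and 799 CPM in the control and 601, 664 and 531 CPM on fibronectin. The groups are apart and the change small (-0.43, SE 0.094, adjusted p = 0.00296), and *Tead4* and *Acta2* also fell (-0.78 and -0.24), the call of *Acta2* being lost when any sample is left out. Among nonmuscle myosins 3 of 7 rose and 2 fell at a median of 0.21 (0.12 without fibronectin 3 to 0.29 without fibronectin 2), with *Myh9* and *Myh10*, the chains of stress fibres, at 0.38 and 0.57, and *Myh14* and *Myl12a* at -1.53 and -0.34. *Myh14* loses its call without control 1, control 2, fibronectin 1 or fibronectin 2.

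The direct test of fibronectin against Geltrex, which shares the fibronectin samples with the results above, found 577 DEGs (3.98%), 249 higher and 328 lower on fibronectin. By adjusted p alone 1491 genes (10.3%) were higher and 1314 (9.06%) lower, with a median log2 value of -0.0049 over all genes. In the mitosis list 1 of 51 genes was higher on fibronectin and 0 lower. That gene is *Knl1* (2.11 against the control, and 0.53 against Geltrex, adjusted p = 0.00994). The mitosis medians against the shared controls were 1.56 on fibronectin and 1.49 on Geltrex. For *Myog* the samples on Geltrex had 84.1, 79.5 and 77.7 CPM, and its difference from fibronectin did not pass (-0.34, adjusted p = 0.0706).

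Muscle structure genes stood lower on fibronectin than on Geltrex in part. In the fast sarcomere list 7 of 11 were lower and 0 higher, in the shared list 8 and 1 of 29, and in the slow list 3 and 0 of 11, while of the 9 sarcomeric myosin heavy chains only *Myh8* was lower (-0.65) and none higher. *Actc1*, for example, had 33.7, 27.7 and 27.8 CPM on Geltrex, and the direct value was -1.08 (adjusted p = 4.17e-05). *Chrng* had 154, 138 and 144 CPM there, again over the fibronectin samples (-0.94, adjusted p = 2.78e-05). *Mymk* differed by -0.63 and *Itga7* by -0.70. Against the same controls the medians of these lists were negative on both coatings. The fast list had -1.93 on fibronectin and -1.25 on Geltrex, and the slow list -1.77 and -1.66. In the shared list they were -1.45 and -1.27, and for the myosin heavy chains -1.65 and -1.55.

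Sterol genes separate these coatings. In their list 21 of 27 genes were higher on fibronectin than on Geltrex and 0 lower, where the medians against the control were 0.41 and -0.077. *Hmgcs1* had 318, 317 and 325 CPM on Geltrex, all under the fibronectin samples (1.37, adjusted p = 6.43e-06). Other metabolic lists differ in part. Of 24 genes in the list of branched-chain amino acids, serine and ATF4, 6 were higher on fibronectin than on Geltrex and 3 lower, with medians against the control of 0.47 and 0.43. *Bcat1* had 12.5, 13.97 and 11.8 CPM on Geltrex, close to the control level, and differed by 1.81 (adjusted p = 7.66e-08). *Asns*, *Aldh1l2* and *Mthfd2* were higher by 0.78, 0.93 and 0.88, and *Atf3*, *Chac1* and *Atf4* had -3.77, -1.17 and -0.81. Against the control *Chac1* rose (0.48), a call lost without control 2, control 3, fibronectin 1 or fibronectin 2. In the glycolysis list 9 of 23 genes were lower on fibronectin than on Geltrex and 1 higher (*Slc16a1*, 0.33), and of the 49 nuclear genes of oxidative phosphorylation 7 were lower. *Itgb3* had 24.2, 25.6 and 21.4 CPM on Geltrex and was higher on fibronectin by 1.04 (adjusted p = 8.49e-06). In the focal adhesion list 4 of 24 genes were lower on fibronectin than on Geltrex and 1 higher. Its medians against the control were 0.15 on fibronectin and 0.17 on Geltrex.

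Defence genes lie on the other side. Of 35 interferon response genes 31 were lower on fibronectin than on Geltrex and 2 higher. Against the control the median was -0.0073 on fibronectin (-0.046 without fibronectin 1 to 0 when a control sample is left out) and 2.82 on Geltrex, and 1 of the 35 rose and 3 fell on fibronectin. The gene that rose is *Ifih1*, an RNA sensor (0.82). The lower genes are *Igtp* (-1.03), *Xaf1* (-0.46) and *H2-K1* (-0.43), which all lose their calls without fibronectin 2, *Xaf1* also without control 1 or fibronectin 1 and *H2-K1* also without control 1, control 2 or fibronectin 3. *C3*, the central protein of complement, had 0.875, 1.247 and 1.02 CPM in the control and 1.11, 1.298 and 1.51 CPM on fibronectin, with overlap, and 408, 339 and 336 CPM on Geltrex. The direct value was -8.11 (adjusted p = 1.18e-13).

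In the list of complement, chemokines and NF-kB 16 of 20 genes were lower on fibronectin than on Geltrex and 0 higher. Against the control 4 rose and 6 fell, at a median of -0.21 (-0.37 without fibronectin 3 to -0.16 without fibronectin 2). The chemokines *Ccl7*, *Ccl2* and *Cxcl1* fell (-1.252, -1.11 and -0.64, the last with overlap), and so did the complement inhibitor *Serping1* (-0.90). The call of *Cxcl1* is lost without control 1, control 3, fibronectin 2 or fibronectin 1 (-0.40), and it stands at -1.01 without fibronectin 3. Among those higher were the chemokine *Cxcl12* (0.53), the adhesion molecule *Vcam1* (0.41) and *Nfkb1* (0.27), whose call is lost without control 3.

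Of 16 targets of SRF and YAP 5 were lower on fibronectin than on Geltrex, and the other 11 did not pass. *Ankrd1* reached 1679, 1710.4 and 1746 CPM on Geltrex, and fibronectin differed by -1.52 (adjusted p = 2.65e-08). *Ccn1* and *Ccn2*, secreted matricellular proteins, did not pass against the control (-0.76, adjusted p = 0.122 and 0.22, adjusted p = 0.104), but without fibronectin 3 both did, at -1.67 for *Ccn1* and 0.30 for *Ccn2*, and *Ccn1* also passed with a replicate block (-0.92, adjusted p = 0.037) and with no filter. On fibronectin they were lower than on Geltrex, with direct values of -3.597 and -2.28, and so were *Srf* (-1.05) and *Amotl2* (-1.48), the last of which passed against the control without fibronectin 3 (-0.23) and not with it (-0.16). Outside that list, *Ccnd1* had 67.7, 61.8 and 63.4 CPM on Geltrex, over its fibronectin level (-0.56, adjusted p = 5.50e-04).

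Against Collagen I, a comparison that again shares the fibronectin samples, there were 1226 DEGs (8.46%), 522 higher and 704 lower on fibronectin. By adjusted p alone 3319 genes (22.9%) were higher and 3204 (22.1%) lower, at a median of -0.023. All 51 mitosis genes were higher on fibronectin than on Collagen I and all 11 fast sarcomere genes lower. *Top2a* had 51.7, 54.2 and 55.7 CPM on Collagen I, in a range below every fibronectin sample (2.09, adjusted p = 1.95e-09). *Bcat1* had 3.597, 4.09 and 2.98 CPM there, under the uncoated level too, and differed by 3.64 (adjusted p = 5.74e-10). Of the 49 nuclear genes of oxidative phosphorylation 46 were lower on fibronectin than on Collagen I, against 7 in the test with Geltrex.

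Among 12 common reference genes 1 rose and 1 fell against the control, at a median of 0.11. Neither is a DEG. The gene that rose is *Ywhaz* (0.26, SE 0.070, adjusted p = 0.00933), a call lost in a fit of only the 6 samples (adjusted p = 0.0641).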

How the data were processed

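The deposited table holds raw read counts per gene, which the authors made from the RNA reads; the submitters' processing notes name FastQC, Trimmomatic, HISAT2, featureCounts and DESeq2, with versions and genome build not given in the sources used here. All 12 samples, in 4 groups of 3, were used. All 55536 gene IDs were matched to GENCODE M21 (GRCm38). In R 4.3.3 with edgeR 4.0.16, genes were kept by filterByExpr (minimum count 10, minimum total count 15), scaled by TMM and fitted in 1 quasi-likelihood model (glmQLFit, glmQLFTest) with 4 group means and 8 residual degrees of freedom. The contrasts are fibronectin minus control, and for the direct tests fibronectin minus Geltrex and fibronectin minus Collagen I. Adjusted p-values are Benjamini-Hochberg over all genes tested. Values in CPM use library sizes scaled by TMM; the SE of a log2 fold change is its size over the root of F. TPM is in proportion to counts per kilobase of exon. The depth of 23812461 to 27351766 counts per sample over these 6 samples leaves genes of about 1 CPM with some 24 to 27 counts.

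Named genes are (a) the 12 DEGs at either end of the log2 fold changes, where the 6 samples average 1 CPM or more and the groups do not overlap, (b) the 8 DEGs in each direction with the highest mean CPM, (c) up to 4 genes per list and direction with the largest log2 fold changes among those with adjusted p of at most 0.05, (d) genes of a list as a role or count needs, and (e) *Fn1*, its receptors, the sarcomeric myosin heavy chains and the myogenic factors whatever their values. Members and lists were chosen with earlier results of these data known, and genes taken under (d) after their values were seen. The markers of cell types were set with the lists, and *Tubb3* is named as the neural marker with the most reads.

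Promoter windows are RefSeq's on GRCm38.p6, 300 bases each, searched on both strands. Alternatives were DESeq2 1.42.0, RLE scaling, other filters and fold minimums, a replicate block, the 6 samples of a comparison alone and each sample left out. The scripts were tested on simulated data. A few genes are not reported here, though they are counted in the tests and lists.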

Additional observations from a re-analysis of the deposited data

How the results depend on the processing

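Fibronectin versus control kept a similar number of DEGs under most settings: 965 in the fit reported, 947 with DESeq2 (929 of them shared with it), 963 with RLE scaling, 886 in a fit of only the 6 samples, 1086 with no filter beyond a count in 1 sample (29301 genes tested) and 650 where 10 counts were asked of every sample (12486 genes). In the same order, leaving out the first, the counts were 580, 576, 585, 682 and 361 against Geltrex (577 in the fit reported) and 1215, 1228, 1138, 1483 and 790 against Collagen I (1226), and the drops to 361 and 790 come with fewer genes tested. Leaving out a sample gave 790 (without control 1) to 1055 (without control 2) DEGs against the control, 489 to 668 against Geltrex and 1058 to 1445 against Collagen I. With no fold change minimum, which by its construction takes in more genes, there were 4618 (53.8% higher, against 36.4% of the DEGs), 2805 (53.2% against 43.2%) and 6523 (50.9% against 42.6%). With a log2 change asked to reach 2 in size there were 170 (22 higher, 12.9%), 150 (39 higher) and 263 (69 higher, 26.2%), fewer by construction.

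A replicate block, which pairs samples by their number, gave 969 DEGs against the control, 575 against Geltrex and 1240 against Collagen I. After removing group means, the correlations of fibronectin samples with those of the same number were -0.0083, 0.0162 and -0.1482 for the control, 0.0075, -0.0446 and -0.0178 for Geltrex and 0.0473, 0.1689 and 0.225 for Collagen I.

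No named gene that passed changed direction under a setting in which it was tested; 250 of the 268 were tested where 10 counts were asked of every sample and 266 in the fit of 6 samples. Of the 268, 3 lost the call with DESeq2 (*Dusp1*, *Ier2*, *Vasp*), 2 with RLE scaling (*Acta2*, *Mef2d*), 7 with no filter, 7 of the 250 with 10 counts in every sample (*Sdc2* among them), 3 with the block (*Acta2*, *Boc*, *Itga4*), 27 of the 266 in the fit of 6 samples and 52 when some sample was left out; those of the last kind are named with their results. Calls were gained by *Itgb8* with DESeq2, by *Ccn1* and *Itgb8* with no filter and with the block, and by *Amotl2*, *Ccn1*, *Ccn2*, *Itgb8* and *Tcf3* when some sample was left out. Genes that had not passed turned direction around 0, and the cause was not tested. *Itga2b* had 0.0081 with DESeq2, 0.0084 with RLE scaling, 0.0103 with no filter, 0.0261 with the block and -0.2519 (without control 2) to 0.4577 (without control 1) with a sample left out, 0.1917 without fibronectin 1. With a sample left out *Pax7* ran from -0.4222 to 0.0898 (without control 1; 0.0281 without fibronectin 1), *Atf4* from -0.0182 (without control 3) to 0.1279, *Cebpa* from -0.0086 (without control 3; -0.0009 without fibronectin 3) to 0.2343, *Itga5* from -0.0139 (without control 3) to 0.1185, *Sdc1* from -0.039 (without fibronectin 3; -0.0061 without control 3) to 0.1642 and *Myh13* from -0.9227 to 0.0697 (without fibronectin 2).

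Of 76 counts of DEGs in lists, 1 to 7 changed by more than 1.5 times, or to or from 0, under a setting other than leaving out samples, and none with the block. Over the fits that leave out a sample 31 of 456 such counts changed so. A list median moved by more than the spread of that median within groups in 35 of 228 cases with a sample left out, and for 5 of the 38 lists with no filter, 4 with 10 counts in every sample and 1 with the 6 samples, the interferon list (-0.092). The sign changed in some of these, as for myogenic factors (0.051 with 10 counts), nonmuscle myosins (-0.056 with no filter) and interferon response (0.022 with no filter). Depth limits genes of a few CPM or less, such as *Eln*, *Cox7a1* and *Olfr1389*, whose values rest on few reads. With 3 samples a group from a single line, nothing here speaks to other lines or cultures.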

Other observations

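Early response genes showed no common direction on fibronectin. Of 24 genes of the immediate-early and ERK feedback list 5 were higher and 7 lower than in the control, where 17.1% and 14.7% of all genes tested were, at a median of -0.053 (-0.20 without fibronectin 3 to 0.025 without fibronectin 1). *Fos*, a subunit of the AP-1 factor, had 8.95, 8.29 and 5.65 CPM in the control and 1.63, 1.42 and 4.70 CPM on fibronectin. The groups do not overlap, but fibronectin 3 is near the lowest control (-1.56, SE 0.38, adjusted p = 0.00599). The feedback inhibitor *Spry1* fell (-1.005), and so did *Dusp1* (-0.90) and *Ier2* (-0.83) with overlap. Without fibronectin 3 these 2 stand at -1.57 and -1.33, and both calls are lost without control 1, fibronectin 1 or fibronectin 2, that of *Dusp1* also without control 3. The ETS factors *Etv5* and *Etv4*, the inhibitor *Spred1* and the AP-1 subunit *Fosl1* rose by 0.79, 0.60, 0.44 and 1.07. Against Geltrex 20 of the 24 were lower and 0 higher.

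Growth factor and stress lists had medians near the all-gene value of -0.016. Their counts stand beside shares of 17.1% higher and 14.7% lower over all genes tested. In the IGF list (0.058, and -0.076 without fibronectin 3 to 0.047 without fibronectin 1) 3 of 13 rose and 4 fell, with *Igfbp2* at 0.89, *Irs1* at 0.42, *Igf1r* at 0.26, the binding protein *Igfbp4* at -1.01, the imprinted RNA *H19* at -0.69, *Igfbp7* at -0.36 with overlap and *Igfbp6* at -0.33. Calls lost when a sample is left out are those of *Irs1* (control 1), *Igf1r* (control 1, control 3, fibronectin 1 or fibronectin 3), *Igfbp6* (control 1, control 3, fibronectin 1 or fibronectin 2) and *Igfbp7* (control 3, fibronectin 1 or fibronectin 3). *Igf2* is listed at 0 counts. For TGF-beta, myostatin and Notch (0.064, and 0.012 without fibronectin 3 to 0.10 without fibronectin 1) 2 of 20 rose and 6 fell, among them follistatin (*Fst*, -1.09), the Notch ligand *Dll1* (-0.84), *Fstl3* (-0.75) and *Hes6* (-0.68), with *Fstl1* (0.47) and *Acvr1b* (0.30) higher, where the call of *Fstl3* is lost without control 3 or fibronectin 3 and that of *Acvr1b* without control 2, fibronectin 1 or fibronectin 2. The FoxO and atrophy list (-0.028, and -0.051 without control 3 to 0.027 without fibronectin 2) had 3 of 13 on either side, with the ligase *Trim63* at -2.40 (SE 0.14, adjusted p = 1.30e-08), *Fbxo31* at -0.52 and *Foxo4* at -0.50, and *Bnip3l* (0.39), *Fbxo21* (0.26) and *Ctsl* (0.25) higher. The call of *Foxo4* is lost without control 1 or fibronectin 2 (-0.31), that of *Fbxo21* without control 3, fibronectin 1 or fibronectin 3, and that of *Ctsl* without control 1, control 2, fibronectin 1 or fibronectin 3.

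The shares over all genes tested, 17.1% higher and 14.7% lower, belong beside each list count in this paragraph. In the hypoxia list (0.10, and 0.055 without control 3 to 0.12 without control 2) 2 of 19 rose and 3 fell, with the oxygen sensor *Egln3* at -1.33, the peptide *Adm* at -1.17, *Ankrd37* at -0.57 and *Ndrg1* at 0.63, the call of *Ankrd37* being lost without control 1. Calcineurin and NFAT genes (0.062, and 0.031 without control 1 to 0.14 without control 2) gave 5 of 13 higher and 2 lower, *Nfatc4* at -0.77 and the inhibitor *Rcan1* at -0.39, beside *Calm2* (0.34), *Nfatc3* (0.33, with overlap), *Rcan3* (0.29) and *Rcan2* (0.28). Without control 1 *Nfatc4* stands at -0.39 and uncalled, and *Nfatc3*, *Rcan2* and *Rcan3* lose their calls too. Calls are also lost without control 3 (*Nfatc3*, *Rcan3*), fibronectin 1 (*Nfatc3*, *Nfatc4*, *Rcan3*), fibronectin 2 (*Nfatc3*, *Nfatc4*, *Rcan2*) and fibronectin 3 (*Rcan3*). Of the inhibitors of myogenic factors (0.034, and -0.034 without fibronectin 3 to 0.12 without fibronectin 2) 1 of 11 rose, *Id2* (0.48), and 1 fell, *Hes1* (-0.40, a call lost without control 1, control 2, fibronectin 1 or fibronectin 2), and *Twist1* is listed at 0 counts. Over the autosomes and X the share of DEGs ran from 4.35% on chromosome 17 to 8.33% on chromosome 14, and the median log2 fold change from -0.12 on chromosome 7 to 0.089 on chromosome 13.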
